A study of Mus musculus with 7 samples.

Results

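The genes described here are 27 genes of cholesterol biosynthesis and of its control by the transcription factor SREBP2, out of 20719 genes measured. They were chosen by name, with earlier results of these data known. The 27 are 20 enzymes from acetoacetyl-CoA to cholesterol, 6 regulators of SREBP2 processing and the sterol carrier gene Stard4. The 27 genes were all found on the array, with Msmo1 listed under its older symbol Sc4mol, and each was represented by its transcript cluster with the highest mean over 7 arrays. Transcripts of GFP-positive cells, sorted from adrenals of male C57BL/6J mice aged 6 weeks, were measured with Affymetrix gene arrays. In the SF1+ group (4 arrays) the mice carried Sf1:eGFP, in which a fragment of the Nr5a1 locus drives GFP in steroidogenic cells. In the Wnt+ group (3 arrays) they carried TCF/Lef:H2B-GFP, in which TCF/Lef sites and a minimal heat shock promoter drive a nuclear GFP in cells with active Wnt/beta-catenin signalling. RNA of 1 sort of viable cells, pooled from 10 adrenals, went onto each array, and every mouse carried a reporter, so the line, its reporter and the sorted population cannot be told apart.

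Cholesterol is built from acetyl-CoA through mevalonate, isoprenoid pyrophosphates, squalene and lanosterol, and the adrenal cortex uses it as the precursor of all its steroids. Cells adjust the pathway through SREBP2, a membrane-bound transcription factor encoded by Srebf2. When sterols are scarce, the escort protein SCAP carries it to the Golgi, where the proteases encoded by Mbtps1 and Mbtps2 release its active part, which binds sterol regulatory elements in the promoters of the pathway's genes. When sterols are plentiful, the INSIG proteins hold SCAP and SREBP2 in the endoplasmic reticulum. The factors NF-Y and SP1 often bind beside SREBP in these promoters.

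The promoters of 4 enzymes are shown because these genes carried large differences between the sorts or a match to the sterol regulatory element. Each is the run of 250 bases before the transcription start, from RefSeq on GRCm38.p6, printed 5′ to 3′ on the gene's strand. Capitals mark the NF-Y box (CCAAT, or ATTGG where it lies on the other strand) and, in Hmgcs1, the sterol regulatory element form TCACNCCAC. Hmgcs1 (chr13:119690101-119690350, + strand) was selected by the rule that its 250 bases hold this form, whereas Idi1 (chr13:8885356-8885605, + strand), Lss (chr10:76531355-76531604, + strand) and Msmo1 (chr8:64733579-64733828, - strand) were chosen after their values were seen.
Hmgcs1: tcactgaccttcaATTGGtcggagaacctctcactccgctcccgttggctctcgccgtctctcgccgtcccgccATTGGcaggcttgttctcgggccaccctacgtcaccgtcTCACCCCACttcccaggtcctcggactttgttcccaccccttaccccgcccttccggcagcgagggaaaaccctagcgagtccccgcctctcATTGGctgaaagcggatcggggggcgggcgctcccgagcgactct
Idi1: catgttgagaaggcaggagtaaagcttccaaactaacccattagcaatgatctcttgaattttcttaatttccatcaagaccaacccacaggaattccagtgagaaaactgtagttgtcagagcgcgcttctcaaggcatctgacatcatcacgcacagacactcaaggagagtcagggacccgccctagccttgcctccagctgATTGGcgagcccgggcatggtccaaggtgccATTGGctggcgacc
Lss: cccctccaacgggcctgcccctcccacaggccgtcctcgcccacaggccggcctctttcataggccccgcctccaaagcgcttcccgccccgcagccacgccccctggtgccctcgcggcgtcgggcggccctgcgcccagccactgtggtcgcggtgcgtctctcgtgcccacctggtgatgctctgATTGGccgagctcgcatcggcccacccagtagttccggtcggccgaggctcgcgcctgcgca
Msmo1: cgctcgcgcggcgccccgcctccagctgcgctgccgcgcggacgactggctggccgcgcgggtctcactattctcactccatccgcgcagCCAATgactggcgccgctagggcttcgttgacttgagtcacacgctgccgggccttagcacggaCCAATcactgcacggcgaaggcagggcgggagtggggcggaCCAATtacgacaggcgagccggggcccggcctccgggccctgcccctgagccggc

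RefSeq promoters matched 23 of the 27 genes, with 29 start sites. The NF-Y box CCAAT, searched on both strands, lay in the promoters of 19 of the 23 genes (82.6%), against 37.5% of all 27025 genes in the table. Hmgcs1 and Msmo1 had 3 boxes each, Idi1 had 2 and Lss had 1. The SP1 box GGGCGG lay in 20 of the 23 (87.0%), against 35.4% of all genes. The form TCACNCCAC lay in 1 of the 23, Hmgcs1, where it read TCACCCCAC and began 137 bases before the start, against 1.22% of all genes. Matches of different motifs were counted independently of one another. Each match is a description of the letters in these windows.

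Gene by gene, 0 of the 27 passed the test over all genes (limma, Benjamini-Hochberg adjusted p under 0.05), against 0.256% of the 20719 genes. At an unadjusted limma p under 0.05, 9 were higher in Wnt+, against 7.61% of all genes, and 0 were lower, against 7.89%. The Wnt+ mean lay above the SF1+ mean for 24 of the 27 genes, against 54.8% of all genes. Their median difference, Wnt+ minus SF1+, was 0.48 on the log2 scale, beside 0.020 for all genes. For 4 genes, Fdps, Lss, Msmo1 and Dhcr7, every Wnt+ array lay above every SF1+ array, against 7.04% of all genes, and for 0 genes every Wnt+ array lay below, against 7.07%. Because the 27 genes were chosen with earlier results of these data known, these counts and shares are a description and not a test. In RNA from a mixed sort, fewer cells of a type and less RNA per cell cannot be told apart. All differences below are on this log2 scale and run in the same direction, and the standard errors (SE) are those of the limma fit. That fit assumes the same spread in both groups. For all of the 27 genes but Mvk and Scap the SD was larger in Wnt+, the group with fewer arrays. Msmo1, for example, had an SD of 1.43 in Wnt+ and 0.23 in SF1+, and Lss 0.75 and 0.15. With such unequal spread the p-values and SEs given here can be too small.

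The cells behind the gates were checked on marker genes. The mean log2 value of 14 steroidogenic cortex markers was 7.04 to 7.70 in the SF1+ arrays and 8.15 to 8.84 in the Wnt+ arrays, so both sorts held cortical RNA. Nr5a1, the gene behind the SF1 reporter, averaged 5.75 ± 0.47 (SD, n = 4) where the label read SF1+ but 7.30 ± 0.38 (SD, n = 3) where it read Wnt+ (limma adjusted p = 0.0938). It thus lay higher in the group sorted on the other reporter. The directions below rest on the labels. Markers of other cell types were also measured, and 12 endothelial markers averaged 7.93 to 8.45 in SF1+ and 5.56 to 7.71 in Wnt+.

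The 3 Wnt+ arrays differed widely in these genes. The median of the 27 genes, relative to the SF1+ mean of each, was 0.51 in Wnt+ replicate 1, 1.19 in replicate 2 and 0.048 in replicate 3. Replicate 2 was the highest of all 7 arrays for 17 of the 27 genes, against 20.8% of all genes. It lay at least 1 log2 unit above every other array for 9 of them, against 0.565% of all genes. These 9 were Hmgcs1, Fdft1, Sqle, Lss, Cyp51, Msmo1, Nsdhl, Hsd17b7 and Sc5d. Replicate 1 was highest for 6 genes (12.0% of all genes) and replicate 3 for 0 (18.6%). Replicate 1 lay above every SF1+ array for 16 of the 27 (23.0% of all genes), replicate 2 for 21 (29.3%) and replicate 3 for 6 (29.9%). The plot of every gene by array shows this order along the pathway.

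**Figure D1:**
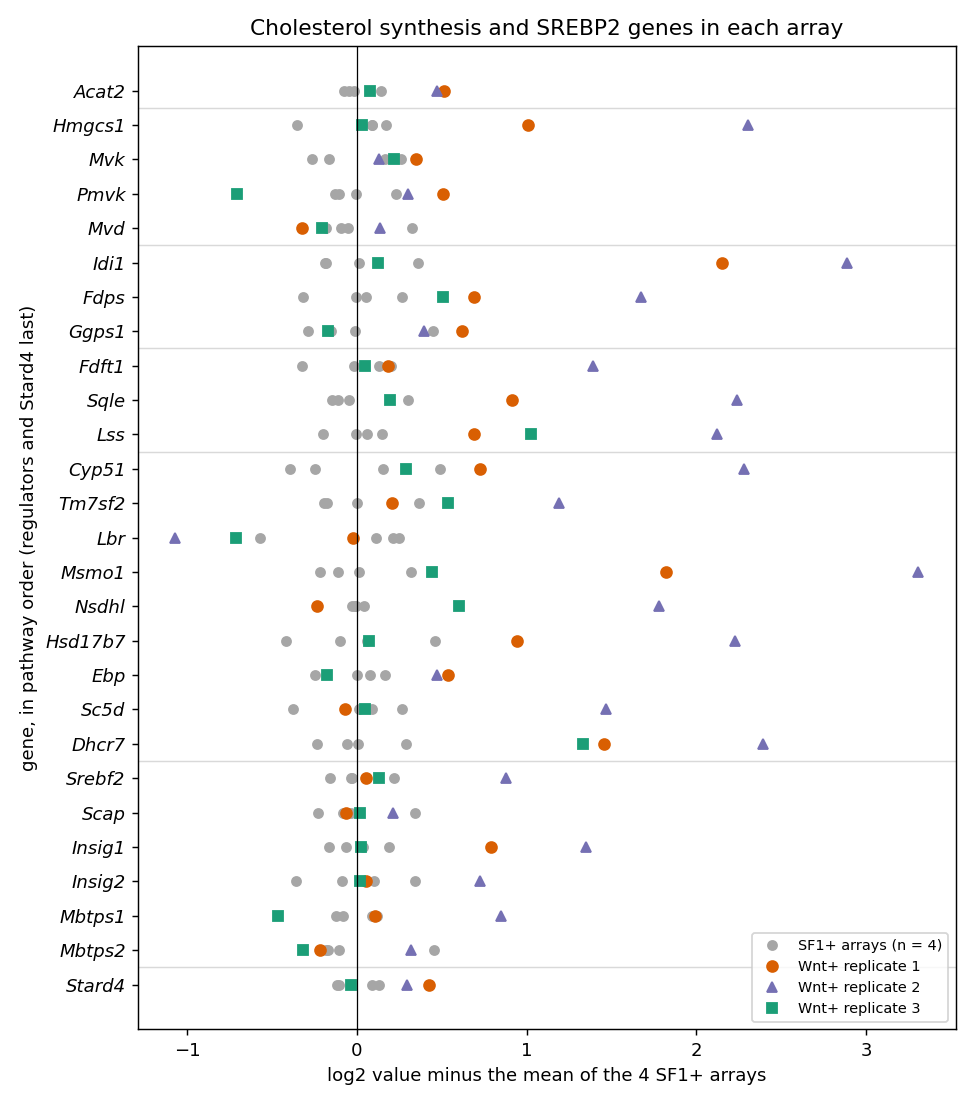
Log2 value of each of the 27 genes in each array minus the mean of the 4 SF1+ arrays, in pathway order. Grey points are SF1+ arrays and coloured symbols the 3 Wnt+ arrays. Replicate 2 (triangles) is the highest array for 17 genes, and for Dhcr7 all 3 Wnt+ arrays lie at least 1.33 above the SF1+ mean.

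The first steps make mevalonate and turn it into isopentenyl pyrophosphate. Acat2, the cytosolic thiolase that joins acetyl-CoA units, had log2 values of 3.48, 3.70, 3.54 and 3.51 in SF1+ replicates 1 to 4 and 4.07, 4.03 and 3.63 in Wnt+ replicates 1 to 3. Replicates 1 and 2 of Wnt+ lay above all SF1+ arrays and replicate 3 lay within their range, and the difference was 0.35 (SE 0.13, limma adjusted p = 0.249). Hmgcs1, the synthase that forms HMG-CoA, was at 5.00, 5.01, 5.09 and 4.57 in SF1+ and at 5.92, 7.22 and 4.95 in Wnt+. Here too Wnt+ replicates 1 and 2 were the high arrays, and replicate 3 lay within the SF1+ range, which left a difference of 1.11 with an SE of 0.49 (limma adjusted p = 0.337). Without Wnt+ replicate 2 the Hmgcs1 difference was 0.52.

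The 3 enzymes that phosphorylate and decarboxylate mevalonate differed less. Mvk, the mevalonate kinase, ranged from 3.08 to 3.60 in SF1+ and from 3.47 to 3.69 in Wnt+. Pmvk, the kinase of the next step, ranged from 3.63 to 3.99 in SF1+ and from 3.05 to 4.26 in Wnt+, with replicate 3 the lowest of all 7 arrays. Mvd, the decarboxylase, lay between 2.70 and 3.21 in SF1+ and between 2.56 and 3.01 in Wnt+, near or below the array medians of 3.13 to 3.23, where differences are compressed. The groups overlapped for all 3 genes. Their differences were 0.23, 0.034 and -0.13, with limma adjusted p of 0.525, 0.973 and 0.773.

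Among the isoprenoid enzymes, Idi1 and Fdps differed most and Ggps1, on the branch to protein prenylation, less. Idi1, which interconverts the isoprene building blocks, was at 3.32, 3.87, 3.53 and 3.33 in SF1+ and at 5.67, 6.40 and 3.64 in Wnt+. Wnt+ replicates 1 and 2 stood about 2 log2 units or more above the SF1+ mean, at 2.15 and 2.89, while replicate 3 stood within the SF1+ range at 0.12. The difference was 1.72 (SE 0.60, limma adjusted p = 0.239), and it was 1.14 without replicate 2. A second cluster annotated to Idi1 gave 1.76, with the same order of Wnt+ arrays. Whether the 2 clusters are independent readings of the gene was not tested.

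Fdps, the farnesyl pyrophosphate synthase, was at 3.01, 3.60, 3.33 and 3.39 in SF1+ and at 4.02, 5.00 and 3.84 in Wnt+. All 3 Wnt+ arrays lay above all 4 SF1+ arrays. The Fdps difference of 0.96 (SE 0.29, 1.94-fold) had a limma adjusted p of 0.191 and was 0.60 without Wnt+ replicate 2. The SF1+ values of Fdps, Idi1 and Mvk lay in part near the array medians of 3.13 to 3.23, where differences are compressed. So did those of Sqle, Cyp51 and Hsd17b7, described below. Ggps1, which makes geranylgeranyl pyrophosphate, ranged from 5.25 to 5.98 in SF1+ and from 5.37 to 6.15 in Wnt+ and differed by 0.28 (SE 0.24).

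The enzymes that commit isoprenoids to sterols are Fdft1 (squalene synthase), Sqle (squalene epoxidase) and Lss (lanosterol synthase). Sqle was at 3.66, 3.31, 3.21 and 3.25 in SF1+ and at 4.27, 5.60 and 3.55 in Wnt+. Its Wnt+ replicate 3 fell inside the SF1+ range, and the difference was 1.12 (SE 0.44, limma adjusted p = 0.289). Lss was at 2.90, 2.55, 2.75 and 2.81 in SF1+ and at 3.45, 4.88 and 3.78 in Wnt+. Every Wnt+ array exceeded every SF1+ array, and the SF1+ values lay below the array medians, where differences are compressed. The Lss difference of 1.28 (SE 0.32, 2.43-fold) had a limma adjusted p of 0.143. It was 0.86 without Wnt+ replicate 2.

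The 2 clusters of Fdft1 disagreed in size. The brighter one, used here, ranged from 5.90 to 6.42 in SF1+ and was at 6.40, 7.61 and 6.27 in Wnt+, so only replicate 2 stood out. Its difference was 0.54 (SE 0.33, limma adjusted p = 0.502), and it was 0.12 without that replicate. The dimmer cluster was at 3.90 to 4.25 in SF1+ and at 4.99, 6.34 and 4.89 in Wnt+, with no overlap between the groups and a difference of 1.31. Which of the 2 follows the squalene synthase transcript better was not tested.

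**Figure D2:**
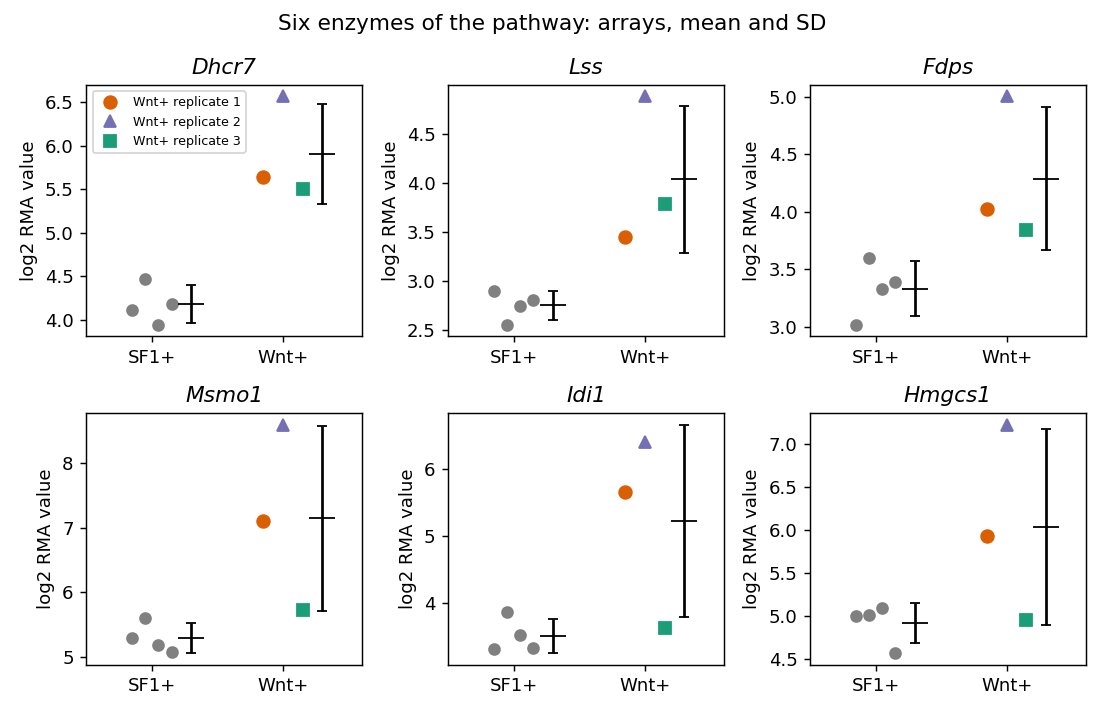
Log2 values of 6 enzymes in each array, with the mean and SD of each group as a bar to the right of its points (SF1+ n = 4, Wnt+ n = 3). For Dhcr7, Lss, Fdps and Msmo1 all Wnt+ arrays lie above all SF1+ arrays, whereas for Idi1 and Hmgcs1 Wnt+ replicate 3 lies among the SF1+ arrays.

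The later enzymes convert lanosterol to cholesterol, and 2 of them, Msmo1 and Dhcr7, had the largest differences of the 27 genes together with Idi1. Dhcr7, the 7-dehydrocholesterol reductase that completes one route to cholesterol, was at 4.12, 4.47, 3.94 and 4.18 in SF1+ and at 5.64, 6.57 and 5.51 in Wnt+. The lowest Wnt+ array lay above the highest SF1+ array, and Wnt+ replicates 1, 2 and 3 exceeded the SF1+ mean by 1.46, 2.39 and 1.33. The difference was 1.73 (SE 0.27, 3.31-fold), with the smallest p of the 27 genes and a limma adjusted p of 0.0672. Without Wnt+ replicate 2 it was 1.39 (limma adjusted p = 0.0679).

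Msmo1, the oxidase that removes the methyl groups at carbon C4, was at 5.30, 5.61, 5.18 and 5.07 in SF1+ and at 7.11, 8.60 and 5.73 in Wnt+. Wnt+ replicate 3 lay above the highest SF1+ array by a small margin, and replicate 2 lay far above all others. The difference of 1.86 (SE 0.60, 3.62-fold) was the largest of the 27, with a limma adjusted p of 0.215, and it was 1.13 without replicate 2. Nsdhl and Hsd17b7 encode the dehydrogenase and the ketoreductase that act with it. Nsdhl ranged from 4.60 to 4.67 in SF1+ and was at 4.39, 6.41 and 5.23 in Wnt+, where replicate 1 lay below every SF1+ array. Hsd17b7 ranged from 2.99 to 3.86 in SF1+ and from 3.48 to 5.63 in Wnt+. Their differences were 0.72 and 1.08 (limma adjusted p of 0.482 and 0.350), and 0.18 and 0.51 without replicate 2.

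Cyp51, the lanosterol demethylase, ranged from 3.16 to 4.05 in SF1+ and from 3.85 to 5.84 in Wnt+, with a difference of 1.10 (SE 0.48, limma adjusted p = 0.335) that was 0.51 without replicate 2. The next step, reduction of the sterol C14 double bond, can be carried out by the products of both Tm7sf2 and Lbr, and the differences of these 2 genes had opposite signs. Tm7sf2 was at 3.18, 2.62, 2.82 and 2.64 in SF1+ and at 3.02, 4.01 and 3.36 in Wnt+. The Tm7sf2 values in SF1+ lay near or below the array medians of 3.13 to 3.23, where differences are compressed. Wnt+ replicate 1 lay within the SF1+ range, and the difference was 0.65 (SE 0.25, limma adjusted p = 0.280). Lbr, whose product is also the lamin B receptor of the nuclear envelope, ranged from 4.52 to 5.34 in SF1+ and was at 5.07, 4.02 and 4.38 in Wnt+. Replicate 2, the highest array for most of the pathway, was the lowest array for Lbr. The Lbr difference was -0.60 (SE 0.30, limma adjusted p = 0.402), the most negative of the 27.

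The isomerase Ebp and the desaturase Sc5d differed by 0.28 (SE 0.19) and 0.48 (SE 0.38). Ebp ranged from 3.63 to 4.04 in SF1+ and from 3.70 to 4.41 in Wnt+. Sc5d stood at 4.81, 6.35 and 4.92 in Wnt+ against 4.50 to 5.14 in SF1+, so that without replicate 2 its difference was -0.013. The groups overlapped for both genes (limma adjusted p of 0.564 and 0.619).

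Of the regulators 1, Insig1, had an unadjusted limma p under 0.05, and the median difference of the 6 was 0.22. Insig1, itself a target of SREBP2 and a retention factor that holds SCAP back, was at 6.31, 6.66, 6.51 and 6.41 in SF1+ and at 7.26, 7.82 and 6.49 in Wnt+. Wnt+ replicates 1 and 2 lay above all SF1+ arrays and replicate 3 lay among them, as for Hmgcs1, Idi1 and Sqle. The difference was 0.72 (SE 0.29, limma adjusted p = 0.300), and 0.41 without replicate 2. Insig2, the second retention factor, was at 3.79, 4.22, 3.52 and 3.98 in SF1+ and at 3.93, 4.60 and 3.90 in Wnt+, a difference of 0.27 (SE 0.23, limma adjusted p = 0.654).

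Srebf2 was at 5.67, 5.79, 6.05 and 5.79 in SF1+ and at 5.88, 6.70 and 5.96 in Wnt+. Replicate 2 was the one Wnt+ array above the SF1+ range, and the difference was 0.35 (SE 0.21, limma adjusted p = 0.494), or 0.092 without it. Scap was at 5.10, 4.95, 5.14 and 5.52 in SF1+ and at 5.12, 5.39 and 5.20 in Wnt+. Its difference of 0.056 (SE 0.15) was the smallest in size but for that of Pmvk. Srebf2 and Scap proteins are regulated by cleavage and transport, which an RNA measurement does not read.

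The protease genes overlapped between the groups. Mbtps1, the site-1 protease, was at 4.93, 4.69, 4.90 and 4.74 in SF1+ and at 4.92, 5.67 and 4.35 in Wnt+. Mbtps2, the site-2 protease, was at 3.87, 3.81, 3.80 and 4.43 in SF1+ and at 3.76, 4.29 and 3.66 in Wnt+. Their differences were 0.16 (SE 0.28) and -0.072 (SE 0.22), with limma adjusted p of 0.846 and 0.921. Stard4, a soluble sterol carrier whose gene SREBP2 activates, was at 3.80, 4.05, 3.81 and 4.00 in SF1+ and at 4.34, 4.21 and 3.88 in Wnt+. Replicates 1 and 2 lay above the SF1+ arrays, and the difference was 0.23 (SE 0.13, limma adjusted p = 0.473).

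The size of most differences rested on single Wnt+ arrays. Without Wnt+ replicate 2 the median of the 27 differences was 0.22, and 4 genes had an unadjusted limma p under 0.05, all higher (6.15% of all genes). These were Fdps, Lss, Msmo1 and Dhcr7, the same genes that separated the groups with all arrays, and 0 passed over all genes (0.0386%). The 4 were also the genes with both remaining Wnt+ arrays above every SF1+ array (11.4% of all genes), and for 2 others, Mvd and Mbtps2, both lay below (9.89%). Groups apart with all arrays stay apart when an array is left out, so the separation of these 4 genes had to recur. Without Wnt+ replicate 3 the median was 0.70 and 14 genes had an unadjusted limma p under 0.05, all higher (7.62% of all genes), with 0 passing over all genes. The same 14 had both remaining Wnt+ arrays above every SF1+ array (12.5% of all genes). They were Acat2, Hmgcs1, Pmvk, Idi1, Fdps, Sqle, Lss, Cyp51, Msmo1, Hsd17b7, Ebp, Dhcr7, Insig1 and Stard4.

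**Figure D3:**
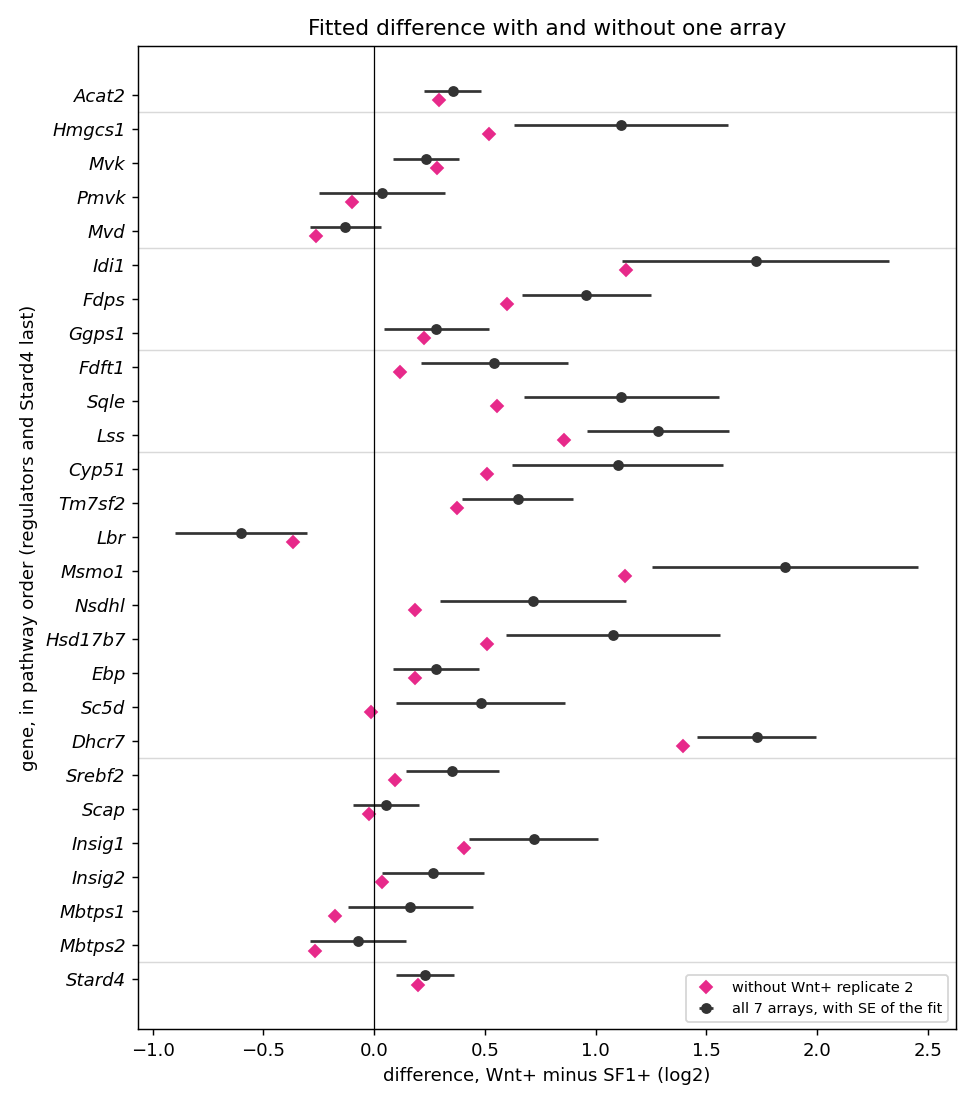
Fitted difference, Wnt+ minus SF1+, for each gene with all 7 arrays (black, bars are the SE of the fit) and without Wnt+ replicate 2 (pink). Most differences shrink without that array, and those of Dhcr7, Idi1 and Msmo1 stay above 1.

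By stage of the pathway, the median difference was 0.13 for the 4 mevalonate enzymes, 0.96 for the 3 isoprenoid enzymes, 1.12 for the 3 squalene enzymes, 0.72 for the 9 lanosterol-to-cholesterol enzymes and 0.22 for the 6 regulators. Over the 20 enzymes the median was 0.68, and 0.33 without Wnt+ replicate 2, and 8 were higher at an unadjusted limma p under 0.05, against 7.61% of all genes. Without Wnt+ replicate 2 the medians of the same 5 stages were 0.092, 0.60, 0.56, 0.37 and 0.0077. Within stages the genes varied widely. With all arrays the differences ran from -0.13 to 1.11 for the mevalonate enzymes and from -0.60 to 1.86 for the lanosterol-to-cholesterol enzymes. Differences between stages were not tested.

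Marker lists also differed between the Wnt+ arrays, and their order of arrays was not always that of the cholesterol genes. Relative to the SF1+ mean of each gene, the median of the 14 cortex markers was 0.65, 1.43 and 1.06 in Wnt+ replicates 1, 2 and 3. Replicate 2 was the highest array for 11 of these markers (20.8% of all genes). The median of the 12 endothelial markers was -0.58, -2.63 and -1.36, so replicate 2 had both the highest values of the cholesterol genes and the lowest of the endothelial ones. Replicate 3, which lay near SF1+ in the cholesterol genes, was above SF1+ in cortex markers and below it in endothelial markers. The 10 chromaffin markers averaged 4.62 to 6.06 in SF1+ and 7.34, 6.07 and 7.09 in Wnt+ replicates 1, 2 and 3. Lymphoid markers (12 genes) averaged 3.82 to 4.96 in SF1+ and 2.76 to 2.83 in Wnt+. Macrophage markers averaged 6.66 to 8.26 in SF1+ and 6.74 to 7.34 in Wnt+, and capsule and fibroblast markers 4.17 to 4.82 and 4.12 to 5.28. The part of these cell types in the cholesterol differences was not tested.

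Gene by gene, 13 of the 14 cortex markers were higher at an unadjusted limma p under 0.05 (7.61% of all genes). Mrap, the accessory protein of the ACTH receptor, passed over all genes (1.68, limma adjusted p = 0.0396). Differences of the next 5 by p were 1.69 for Cyp11b1, 0.79 for Akr1b7, 1.55 for Nr5a1, 1.00 for Cyp11a1 and 1.03 for Star. All 12 endothelial markers were lower at an unadjusted limma p under 0.05 (7.89% of all genes) and 0 passed over all genes, with differences of -1.69 for Pecam1, -1.48 for Cdh5, -1.70 for Eng, -1.95 for Cldn5, -1.67 for Esam and -1.63 for Kdr. Of the lymphoid markers, 7 were lower at an unadjusted limma p under 0.05 (7.89% of all genes) and 4 passed over all genes (0.256%). These 4 were Klrd1 (-3.23, limma adjusted p = 0.0243), Lck (-0.95, 0.0359), Nkg7 (-3.83, 0.0396) and Il2rb (-3.61, 0.0453), followed by Gzma (-3.44, 0.0561) and Cd2 (-1.88, 0.127). Chromaffin markers included 5 that were higher at an unadjusted limma p under 0.05 (7.61% of all genes), with 0 passing over all genes. They were Pnmt (2.09, limma adjusted p = 0.0871), Npy (1.73), Scg2 (1.41), Slc18a1 (1.13) and Th (2.56). Cd68 (-0.77, limma adjusted p = 0.206) was the 1 macrophage marker at that level (7.89% of all genes were lower), and 0 capsule and fibroblast markers were. The calls of Mrap, Klrd1, Lck, Nkg7 and Il2rb ended without SF1+ replicate 2, 3 or 4 or Wnt+ replicate 2. They also ended with the replicate number as a block (limma adjusted p of 0.257 to 0.272). Those of the 4 lymphoid genes ended without Wnt+ replicate 3 as well, and that of Il2rb with arrays centred on their medians.

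**Figure D4:**
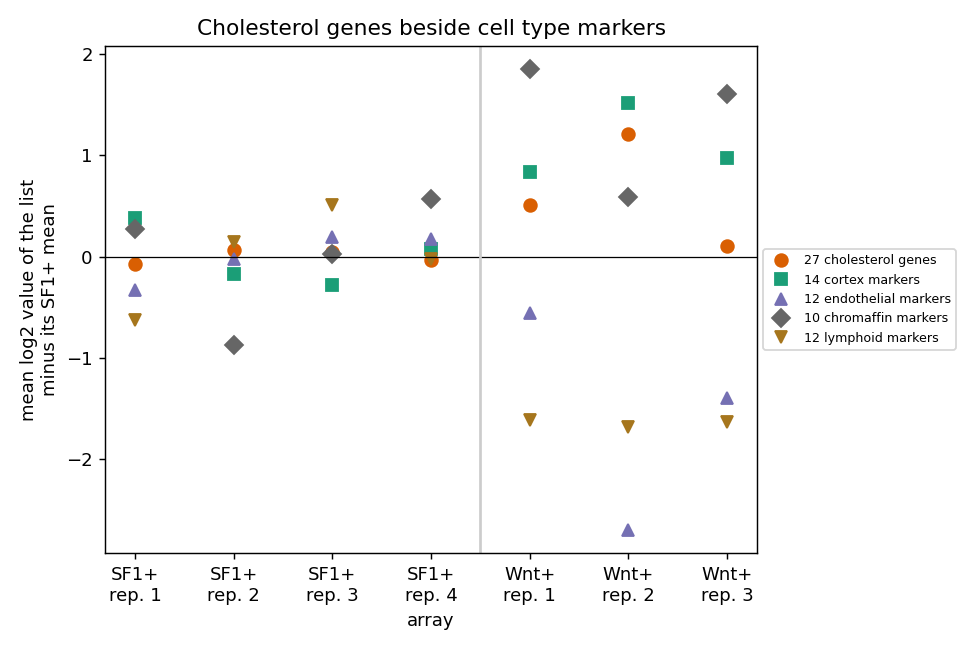
Mean log2 value of the 27 cholesterol genes and of 4 marker lists in each array, each minus its own mean over the SF1+ arrays. In Wnt+ replicate 2 the cholesterol and cortex genes are at their highest and the endothelial markers at their lowest.

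Other genes of the pathway were read from lists of related genes. Of 11 further sterol synthesis genes and cofactors with values, 0 passed over all genes. An unadjusted limma p under 0.05 was found for 2, both higher in Wnt+ (7.61% of all genes). They were Por, the reductase that feeds electrons to Sqle and Cyp51 (0.80, SE 0.20, limma adjusted p = 0.140), and Cyb5b, an outer mitochondrial membrane cytochrome (0.70, SE 0.22). The list median was 0.33. Por was at 6.41, 6.27, 6.55 and 5.98 in SF1+ and at 7.11, 7.43 and 6.75 in Wnt+. It was among 2 of the 11 genes with every Wnt+ array above every SF1+ array (7.04% of all genes). Of 17 genes of prenyl transfer and of the dolichol and ubiquinone branches, 0 passed over all genes. At an unadjusted limma p under 0.05, 2 were higher (7.61% of all genes) and 0 lower (7.89%). Dhdds, which lengthens farnesyl pyrophosphate for dolichol, differed by 0.43 (SE 0.10), and Fntb, a farnesyltransferase subunit, by 0.30 (SE 0.09). The median of that list was 0.072.

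A further list of 20 genes was drawn up for SREBP regulation and sterol-dependent degradation, and it includes the enzyme gene Tecr. Of these 20, 0 passed over all genes, and the list median was -0.023. At an unadjusted limma p under 0.05, 2 were higher (7.61% of all genes) and 3 lower (7.89%). Fbxw7, the ubiquitin ligase subunit that directs the breakdown of nuclear SREBPs, differed by -0.72 (SE 0.17, limma adjusted p = 0.129), and every Wnt+ array lay below every SF1+ array. Rnf145, a sterol-responsive ubiquitin ligase gene, differed by -0.32 (SE 0.13) and Trib1, a pseudokinase gene linked to hepatic lipogenesis, by -0.90 (SE 0.36). Syvn1, a ligase of endoplasmic reticulum-associated degradation, differed by 0.49 (SE 0.16), and Tecr, a reductase of very long chain fatty acid synthesis, by 0.61 (SE 0.14). In all, 2 of the 20 genes, Fbxw7 and Rnf145, had every Wnt+ array below every SF1+ array (7.07% of all genes). For 1, Tecr, every Wnt+ array lay above (7.04%). Srebf1, which encodes the related factor SREBP1, was at 4.02, 4.15, 4.17 and 4.31 in SF1+ and at 4.02, 4.71 and 4.39 in Wnt+, a difference of 0.21 (SE 0.17, limma adjusted p = 0.614).

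Of 19 SREBP targets outside sterol synthesis, 8 had an unadjusted limma p under 0.05, all higher (7.61% of all genes). For each of those 8 every Wnt+ array lay above every SF1+ array (7.04% of all genes). The list median was 0.53, and 0.26 without Wnt+ replicate 2. Fasn, the fatty acid synthase, was the 1 gene of the list that passed over all genes and rose by 0.80 (SE 0.10, limma adjusted p = 0.0495). Its call held in 3 of 14 alternatives, whose adjusted p ranged from 0.038 to 0.272, and ended without Wnt+ replicate 2 (0.091). Fads1 and Fads2, the desaturases of polyunsaturated fatty acids, differed by 1.44 (SE 0.19, limma adjusted p = 0.0501) and 1.56 (SE 0.25, limma adjusted p = 0.0703). The elongase gene Elovl5 differed by 0.83, the malic enzyme gene Me1 by 1.23 and the desaturase gene Scd2 by 1.28. These 8 were picked by that p, which favours groups that lie apart, and the groups overlapped for the rest of the 19. Among the sterol enzymes, the groups overlapped in Wnt+ replicate 3 for Hmgcs1, Idi1 and Sqle, but not for Fdps, Lss, Msmo1 and Dhcr7. Fads1 was at 6.35, 6.34, 6.42 and 7.00 in SF1+ and at 8.09, 8.10 and 7.73 in Wnt+, and its difference was 1.38 without Wnt+ replicate 2.

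The authors' deposited table also lists a fold change and a paired p for a separate experiment, in which tumor cell lines of the mouse adrenal cortex received Bio or vehicle (4 pairs per its header). No sample values of it were used here, so these are the authors' values with no error of their own. Lower values with Bio at an unadjusted paired p under 0.05 were listed in the authors' deposited table for 16 of the 27 genes, against 17.3% of all genes, and 2 were higher, Ebp and Mbtps2, against 18.2%. The fold was under 1 for 19 of the 27, against 53.9% of all genes, and its median was 0.847, beside 0.991 for all genes.

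The lowest folds in the authors' deposited table were those of Idi1 (0.578, paired p = 0.0035), Msmo1 (0.618, paired p = 0.0154) and Hmgcs1 (0.634, paired p = 0.00177). Fdps (0.648) and Insig2 (0.665, paired p = 0.00893) followed in the authors' deposited table, and Dhcr7 was at 0.828 (paired p = 0.0375). For the regulators the authors' deposited table gave Srebf2 at 0.81 (paired p = 0.00865), Scap at 0.956 and Mbtps1 at 0.861, and of the enzymes Lss at 1.08 (paired p = 0.329) and Hsd17b7 at 1.13 (paired p = 0.108). The 2 experiments used different cells, and a difference between them was not tested.

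**Figure D5:**
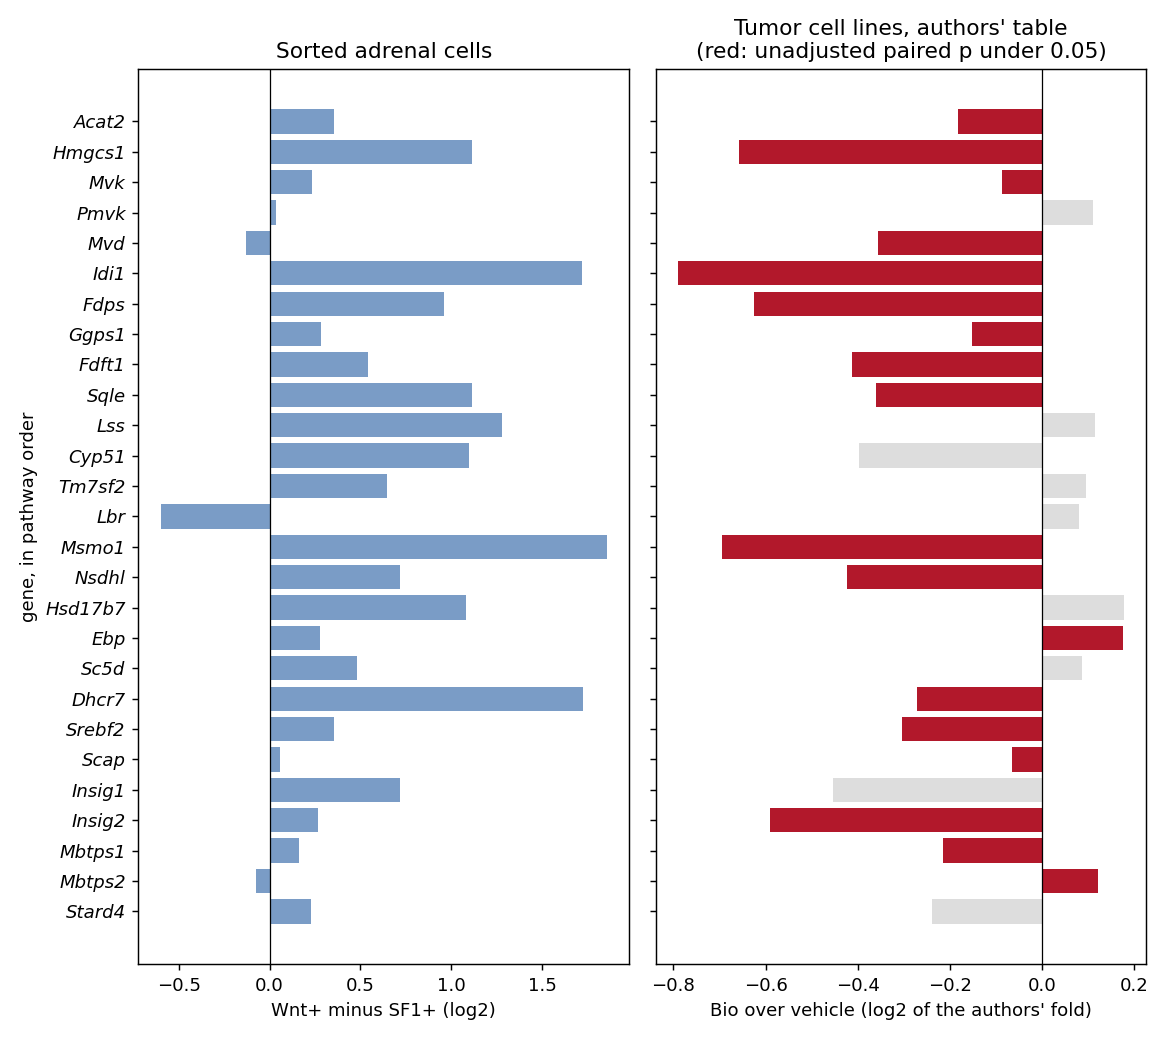
Left, the fitted difference of each gene in the sorted adrenal cells (log2, Wnt+ minus SF1+). Right, the log2 of the authors' deposited fold for Bio over vehicle in tumor cell lines, red where the authors' unadjusted paired p is under 0.05. The fold is under 1 for 19 of 27 genes, and Ebp and Mbtps2 are the red bars above 0.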

How the data were processed

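The authors deposited log2 values per transcript cluster of the Mouse Gene ST strip arrays, made with RMA on perfect-match probes per the file headers and with the oligo package per the submitters' processing notes. No software version or genome build is given in the sources used here. This method draws arrays to 1 distribution and compresses dim values. The authors' deposited table also holds unadjusted p-values and linear fold changes for these groups and for Bio against vehicle, per the file headers. Per the labels' protocols, 5 ng of RNA per sort was amplified, and 4 independent sorts were made per genotype, of which 3 Wnt+ arrays are analysed here. The number of arrays limits the precision.

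Of 28944 clusters, 5132 without a symbol were left out. The cluster with the highest mean stood for each of 20719 genes. limma 3.58.1 in R 4.3.3 (lmFit, eBayes, prior degrees of freedom 1.98) fitted 1 group term, and p-values, all two-sided, were adjusted over all genes. No arrays were identical, and 7 per-sample columns of a drawing sheet were not used. On 10 simulated data sets of this comparison over 20719 genes, 69.6% of genes changed by 1 log2 unit and 94.5% of those changed by 2 were called. The simulated noise was independent and normal, with equal spread in both groups. In the data the SD of Idi1 was 0.26 in SF1+ and 1.43 in Wnt+. The simulated shares therefore do not give the power for genes with such unequal spread.

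The 27 genes and the lists were chosen with earlier results of these data known. All 27 are named. Of each list, up to 6 genes with an unadjusted p under 0.05 are named by smallest p, with Srebf1, Nr5a1 and Axin2. Axin2, a Wnt target, differed by 0.67 (limma adjusted p = 0.500). Alternatives were a replicate block, each array left out, a dim gene filter, median centring, array weights, trended robust moderation, averaging the clusters of a gene, and the series matrix values. Motifs were searched in RefSeq promoters (GRCm38.p6). Plots used matplotlib 3.10.9 in Python 3.11.15.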

Additional observations from a re-analysis of the deposited data

Results flagged for a closer look

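In 5 of 68 genes checked, 1 of the 4 SF1+ arrays stood apart from the other 3 by Dixon's test at its 95% critical value, which chance alone gives in about 1 group in 20. Hmgcs1 was at 4.57 in SF1+ replicate 4 against 5.00 to 5.09 in the others, and Lbr was at 4.52 in SF1+ replicate 1 against 5.20 to 5.34. Mbtps2 was at 4.43 in SF1+ replicate 4 against 3.80 to 3.87. Fads1 was at 7.00 and Scd2 at 7.53 in the same array, against 6.34 to 6.42 and 6.54 to 6.68 in the others.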

How the results depend on the processing

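The cause of each change below was not tested. The 27 genes kept the sign of their difference in all but 13 of 376 repeats, and a gene of the 27 crossed the threshold in 2. Not all repeats could change a sign. The dim gene filter, trended robust moderation and the series matrix values left each difference as it was, and median centring shifted all by the same amount. The replicate block gave the same differences as leaving out SF1+ replicate 4. Dhcr7 passed over all genes with dim genes left out (limma adjusted p = 0.0259, 25 of the 27 genes tested, 221 genes called in all) and with trended and robust moderation (0.035, 155 genes called), and its adjusted p ranged from 0.0259 to 0.272 over all alternatives. Each of these 2 settings thus called 1 of the 27. All genes called numbered 27 with arrays centred on their medians, 33 with array weights and 53 with all arrays as deposited. With arrays left out in turn they numbered 1 (without SF1+ replicate 2 or 3) to 312 (without Wnt+ replicate 1), and 76, 3, 8 and 2 without SF1+ replicate 1, SF1+ replicate 4, Wnt+ replicate 2 and Wnt+ replicate 3. Genes of the 27 at an unadjusted limma p under 0.05 numbered 4 (without SF1+ replicate 4 or Wnt+ replicate 2) to 14 (without Wnt+ replicate 3), with 5 without SF1+ replicate 3, and those whose groups did not overlap 4 to 14, with 7 without SF1+ replicate 1, SF1+ replicate 2 or Wnt+ replicate 1. The median of the 27 differences ranged from 0.22 to 0.70 over the arrays left out, and 1.19 was its value for Wnt+ replicate 2 alone, a comparison added after seeing the data. Signs changed for 5 genes. Over the arrays left out, Pmvk ranged from -0.20 to 0.40, Sc5d from -0.0127 to 0.76, Scap from -0.0221 to 0.17, Mbtps1 from -0.18 to 0.48 and Mbtps2 from -0.27 to 0.08. Deviations of same-numbered arrays from their group means had correlations of -0.217, 0.0344 and -0.214. Those of differently numbered arrays ran from -0.2 to 0.301. With so few arrays, these values cannot settle whether the numbers pair the samples. With the replicate number as a block, 0 genes were called in all, 7 of the 27 had an unadjusted limma p under 0.05, Pmvk was at -0.0076 and Mbtps2 at 0.0789.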
